A study of Mus musculus with 20 samples.

Results

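The genes described here are 10 genes of hepatic iron handling, taken by name from the deposited tables: hepcidin (Hamp) and its paralogue Hamp2, the regulators Bmp6, Tfr2 and Tmprss6, the carriers and transporters Trf, Tfrc and Slc40a1, and the ferritin subunits Fth1 and Ftl1. All 10 were found among the 55487 genes of the count table, and all 10 were among the 16312 genes with enough counts to be tested. They were measured by RNA sequencing of whole liver from female C57BL/6N mice aged 15 weeks, wild type or null for Plin2, the gene of a protein that coats lipid droplets in the cytosol. The 20 libraries formed 4 groups of 5: Plin2+/+ mice fed chow, Plin2+/+ mice fasted for 24 h, and Plin2-null mice fed or fasted in the same way. The labels of 10 libraries name a feeding state but no genotype, and these were read as Plin2-null by elimination, because the design names Plin2+/+ and Plin2-/- mice only. The sources used here do not say how the null allele was made or whether all cells carry it.

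Hepcidin is a peptide hormone that hepatocytes secrete, and it blocks the only known cellular iron exporter, ferroportin, the product of Slc40a1. Its transcription rises when bone morphogenetic proteins from sinusoidal endothelial cells, BMP6 and BMP2, act on hepatocyte receptors and SMAD proteins, and also when interleukin 6 acts through STAT3, while the protease matriptase-2 (Tmprss6) damps the BMP signal. Several other iron genes are controlled after transcription, by iron regulatory proteins that bind a hairpin in the messenger RNA, the iron-responsive element, so that the amount of such a messenger need not follow the amount of its protein.

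Total counts per library ran from 25506471 to 65579038. Plin2 itself separated the genotypes: in fed livers it measured 138 to 249 TPM (a level corrected for gene length and depth, so that genes can be compared) in Plin2+/+ and 12.9 to 25.0 TPM in Plin2-null libraries, and in fasted livers 631 to 1259 and 39.1 to 96.8 TPM. The summed level of 6 hepatocyte markers, Alb, Apoa1, Ttr, Cps1, Serpina1a and Hnf4a, was between 80426 and 161928 TPM in every library, which matches the labelled tissue. No label ties the libraries to litters, batches or days, so the p-values measure only the spread between these samples.

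The 2 hepcidin genes lie next to each other on the minus strand of chromosome 7. In the GENCODE M21 annotation of GRCm38, Hamp (ENSMUSG00000050440) spans 30942368 to 30944032 and Hamp2 (ENSMUSG00000056978) spans 30922372 to 30924681. Their promoters are shown because these neighbouring genes behaved differently on fasting. Each window holds the 250 bases before the RefSeq start (GRCm38.p6, minus strand, chr7:30944030-30944279 for Hamp and chr7:30924182-30924431 for Hamp2). The Hamp window reaches 3 bases into the first exon that GENCODE gives, and the Hamp2 window also lies in an intron of a longer GENCODE transcript that starts upstream. Capitals mark, in Hamp, the matches to 3 short motifs and, in Hamp2, the bases aligned to them.
Hamp: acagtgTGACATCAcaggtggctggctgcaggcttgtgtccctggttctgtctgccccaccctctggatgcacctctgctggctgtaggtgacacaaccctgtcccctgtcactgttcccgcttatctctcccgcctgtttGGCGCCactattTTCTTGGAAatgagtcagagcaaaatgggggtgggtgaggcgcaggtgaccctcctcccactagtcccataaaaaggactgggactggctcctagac
Hamp2: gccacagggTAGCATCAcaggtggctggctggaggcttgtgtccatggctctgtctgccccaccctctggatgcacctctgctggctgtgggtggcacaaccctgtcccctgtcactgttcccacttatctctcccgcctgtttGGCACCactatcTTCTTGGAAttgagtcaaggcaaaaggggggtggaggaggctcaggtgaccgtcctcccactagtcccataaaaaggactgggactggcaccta

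The windows shared 227 of 247 aligned bases (91.9%). The core of the BMP-responsive element, GGCGCC, stood 109 to 104 bases before the Hamp start, and the aligned Hamp2 bases carried the substitution G4A, counted from 1 at the motif's 5′ end. A STAT-type site, TTCNNNGAA, stood 97 to 89 bases before the Hamp start and was the same in Hamp2. A cAMP-response type site, TGACNTCA, a motif chosen after the sequences were seen, stood 244 to 237 bases before the Hamp start, and Hamp2 carried the substitutions G2A and A3G there. Searched on both strands of windows of this length, the 3 motifs were held by 9.59%, 7.02% and 7.49% of 32851 RefSeq promoters. Of the 7 iron handling genes with a promoter entry, the first motif was found in Hamp and Tfrc, the STAT-type motif in Hamp and Hamp2, and the cAMP-response type motif in Hamp and Ftl1. A match describes letters only and does not show that a factor binds there.

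Iron-responsive elements are shown because they set apart the members whose messenger is under post-transcriptional control. A script searched the GENCODE M21 messengers for a C, 5 stem bases, the loop CAGTGN, in which N was not G, and 5 bases that pair with the stem, G-U pairs allowed. One such hairpin was found in the 5′ UTR of Fth1, Ftl1 and Slc40a1, and 4 were found in the 3′ UTR of Tfrc. Over all genes with an annotated UTR, 23 of 20916 (0.11%) held such a hairpin in the 5′ UTR and 100 of 21707 (0.461%) in the 3′ UTR. In the lines that follow, capitals mark the loop of 6 bases; the coordinates are chr19:9982732-9982760 (plus strand) for Fth1, chr7:45459779-45459807 (minus) for Ftl1, chr1:45925465-45925493 (minus) for Slc40a1, and, for the first of the Tfrc copies, chr16:32631219-32631247 (plus).
Fth1: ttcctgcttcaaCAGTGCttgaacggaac
Ftl1: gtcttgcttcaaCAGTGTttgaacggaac
Slc40a1: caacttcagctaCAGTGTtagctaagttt
Tfrc: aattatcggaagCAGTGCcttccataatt

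The level of the members spanned more than 3 orders of magnitude on the length-scaled TPM scale. In fed Plin2+/+ livers, Trf, which encodes the plasma iron carrier transferrin, ranked 8 among all genes at 11518 ± 995 TPM (SD, n = 5). Ftl1, the ferritin light chain, and Hamp followed at 3528 ± 548 and 3482 ± 853 TPM, and their library ranges overlapped. Hamp2 at 520 ± 360, Fth1 at 279 ± 17.0, Tmprss6 at 249 ± 36.2 and Tfr2 at 185 ± 27.5 TPM formed a middle group in which each gene overlapped the next in the order. Slc40a1 at 67.1 ± 10.2, Tfrc at 12.4 ± 6.68 and Bmp6 at 2.95 ± 0.511 TPM came last, each range apart from the one before. The order was the same in fed Plin2-null livers. After fasting Hamp2 dropped to the neighbourhood of Slc40a1 in both genotypes, with ranges that overlapped.

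The light chain of ferritin stood above the heavy chain in every library, by a ratio of TPM of 6.41 to 17.5. Transferrin receptor 2 (Tfr2), the iron sensor of hepatocytes, stood above the classical uptake receptor Tfrc in every library, by a ratio of 7.24 to 35.8. Among the BMP ligands, Bmp2 stood above Bmp6 in every library, by a ratio of 2.05 to 3.79.

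**Figure D1:**
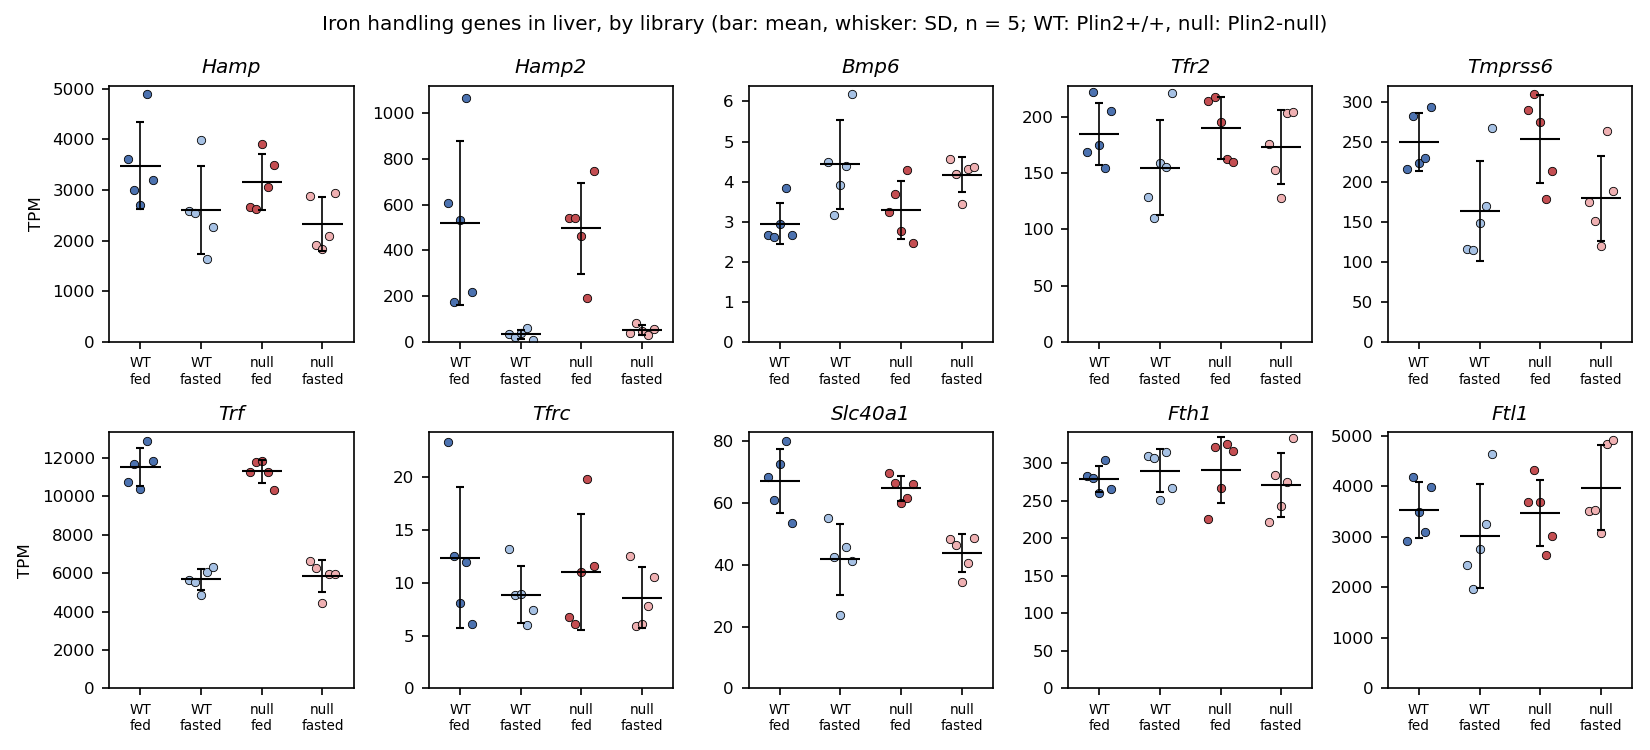
TPM of the 10 iron handling genes in each library (points), with the mean (bar) and SD (whisker) of 5 libraries a group; each panel has its own linear axis from 0. Hamp2 and Trf are lower in all fasted than in all fed libraries of both genotypes, while the groups overlap for Hamp.

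The comparison of fasted with fed Plin2+/+ livers asked how the iron genes respond to a 24 h fast. By edgeR's quasi-likelihood test, Bmp6 rose, and Hamp2, Trf, Slc40a1 and Tmprss6 fell. Thus 1 of 10 was called higher (10.0%, against 20.9% of all genes tested) and 4 of 10 lower (40.0%, against 21.7%). The median log2 fold change of the 10 was -0.27, beside -0.01 for all genes. In Plin2-null livers Bmp6 and Ftl1 rose, and Hamp2 and Trf fell, which made 2 of 10 higher (20.0%, against 18.0% of all genes) and 2 of 10 lower (20.0%, against 18.1%), with a median of -0.12 beside -0.01. With library size as the only scaling, the median of all genes moved to -0.16 in Plin2+/+ and -0.21 in Plin2-null livers, so the fold changes are relative to the bulk of genes. The split of calls moved with it, from 3416 higher and 3541 lower to 1854 and 4173 in Plin2+/+, and from 2942 and 2954 to 1376 and 4243 in Plin2-null livers. Of the members in Plin2-null livers, 0 were then called higher and 3 lower (Hamp2, Trf and Slc40a1), with library size alone and on TPM values alike.

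Hamp, the hepcidin gene that makes the active hormone in mice, was not called in either genotype. In Plin2+/+ livers the 5 fed libraries read 3605, 3001, 2708, 4892 and 3204 TPM and the 5 fasted libraries 2583, 2551, 3987, 1636 and 2265 TPM. In Plin2-null livers the fed libraries read 2658, 2619, 3910, 3068 and 3497 TPM and the fasted libraries 2883, 1915, 1843, 2085 and 2932 TPM. Most fasted libraries were low, but fed and fasted ranges overlapped in both genotypes. On the scaled counts the log2 fold change was -0.23 ± 0.21 (SE; 95% interval -0.67 to 0.20; edgeR adjusted p = 0.389) in Plin2+/+ and -0.15 ± 0.21 (-0.58 to 0.29; adjusted p = 0.61) in Plin2-null livers. On log2(TPM + 0.1) the Plin2-null difference was -0.45 (adjusted p = 0.0921) and was not called. The Plin2+/+ result turned on 1 animal, since without fasted replicate 3, the highest fasted library, Hamp was called lower (-0.48, adjusted p = 0.0443).

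Hamp2, a paralogue in mice whose role in iron balance is less clear, showed the steepest fall of the 10 genes in both genotypes. Fed Plin2+/+ libraries read 609, 174, 532, 1067 and 217 TPM, and the fasted ones 34.6, 22.4, 40.8, 60.6 and 8.65 TPM. In Plin2-null livers the fed libraries read 540, 540, 463, 193 and 748 TPM and the fasted ones 39.8, 83.7, 48.6, 28.6 and 57.9 TPM. Every fasted library lay below every fed one, in spite of a 6.12-fold range among the fed Plin2+/+ libraries alone. The log2 fold change was -3.77 ± 0.60 (SE; adjusted p = 8.18e-05), a 13.7-fold decrease, in Plin2+/+ and -2.93 ± 0.58 (adjusted p = 0.00075), a 7.62-fold decrease, in Plin2-null livers.

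Hamp2 thus made up 5.49% to 17.9% of the summed hepcidin TPM in fed and 0.38% to 3.57% in fasted Plin2+/+ libraries, and 5.91% to 17.6% and 1.35% to 4.19% in Plin2-null libraries. The split between the paralogues carries an uncertainty: their transcripts were identical at 388 of 410 aligned bases (94.6%), with an unbroken identical run of 87 bases, and the sources used here do not say how reads that match both were counted. Hamp2 held 73 to 9144 counts a library, and Hamp 7022 to 30227.

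**Figure D2:**
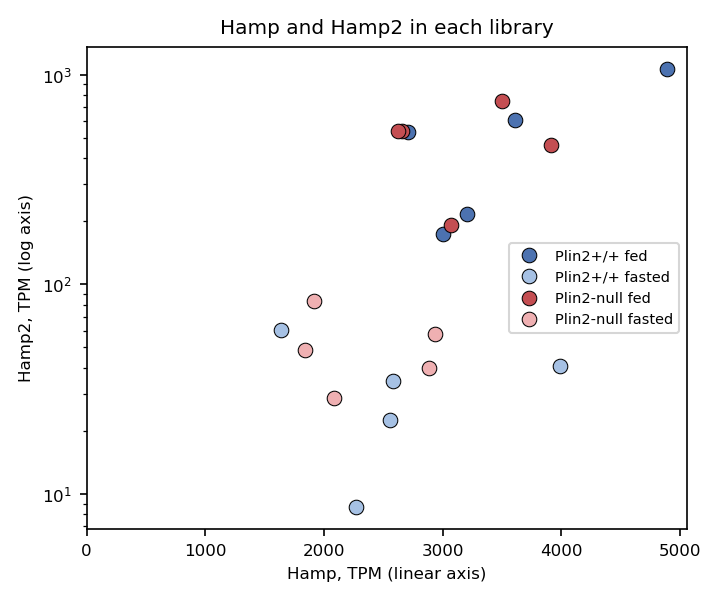
Hamp (linear axis, TPM) against Hamp2 (log axis, TPM) in each of the 20 libraries, coloured by group. Fasted libraries reach at most 83.7 TPM of Hamp2 and fed libraries at least 174 TPM, while along the Hamp axis the groups overlap.

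Bmp6, the ligand that signals iron load to hepatocytes, rose on fasting in both genotypes from a low level. In Plin2+/+ livers it read 2.67, 2.63, 2.95, 3.84 and 2.67 TPM fed and 4.49, 3.16, 3.92, 4.39 and 6.20 TPM fasted. In Plin2-null livers it read 3.24, 3.69, 2.77, 4.29 and 2.46 TPM fed and 4.57, 4.18, 3.44, 4.32 and 4.36 TPM fasted. Fasted libraries were mostly higher, but 1 fed Plin2+/+ library and 2 fed Plin2-null libraries lay within the fasted range. The log2 fold change was 0.72 ± 0.15 (SE; adjusted p = 0.000682) in Plin2+/+ and 0.64 ± 0.15 (adjusted p = 0.00239) in Plin2-null livers. In the latter the call was lost with library size as the only scaling (0.42, adjusted p = 0.0622) and by limma on log2(TPM + 1) (0.28, adjusted p = 0.134) or log2(TPM + 0.1) (0.35, adjusted p = 0.132).

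Bmp6 is made mainly by sinusoidal endothelial cells, so the markers of those cells are given beside it. Of 10 markers, 1 was called higher (Lyve1) and 3 lower in fasted Plin2+/+ livers, and again 1 higher (Lyve1) and 3 lower in Plin2-null livers. These shares, 10.0% and 30.0%, stood beside 20.9% and 21.7% of all genes in Plin2+/+ and 18.0% and 18.1% in Plin2-null livers. Their summed level was 297 to 373 TPM fed and 252 to 382 TPM fasted in Plin2+/+, and 267 to 376 and 173 to 353 TPM in Plin2-null libraries, with none of the 10 at 0 in any library. In whole tissue, fewer cells of a type and less RNA per cell cannot be told apart. The part of these cells in the Bmp6 result was not tested.

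Tmprss6, whose protease product damps BMP signalling and so restrains hepcidin, was called lower in fasted Plin2+/+ livers only narrowly. It read 216, 283, 224, 230 and 294 TPM fed and 117, 115, 148, 171 and 268 TPM fasted there, with 1 fasted library among the fed ones, and ranged from 179 to 310 TPM fed and 120 to 263 TPM fasted in Plin2-null livers. The log2 fold change was -0.47 ± 0.19 (SE; adjusted p = 0.0486) in Plin2+/+ and -0.24 ± 0.19 (adjusted p = 0.335) in Plin2-null livers. The Plin2+/+ call held in 11 of 21 settings and was lost, among others, without any 1 of fasted replicates 1 to 4 (adjusted p up to 0.135) or of fed replicates 2, 3 and 5 (up to 0.11). In Plin2-null livers Tmprss6 was called only after each library's trend with GC content was removed (-0.39, adjusted p = 0.00189).

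Tfr2, which joins the sensing complex with HFE, was not called in either genotype. Its ranges were 154 to 222 TPM fed and 110 to 221 TPM fasted in Plin2+/+ libraries, and 160 to 217 and 128 to 204 TPM in Plin2-null libraries. The intervals of its log2 fold change, -0.42 to 0.18 and -0.16 to 0.44, both held 0.

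Trf fell on fasting in both genotypes. Fed Plin2+/+ libraries read 10764, 11692, 10373, 12909 and 11854 TPM, and fasted ones 5633, 5524, 4846, 6044 and 6336 TPM. In Plin2-null livers the values were 11272, 11788, 11858, 11292 and 10312 TPM fed and 6644, 6248, 4460, 5977 and 5964 TPM fasted. The highest fasted library stayed well below the lowest fed one in each genotype. On the scaled counts the log2 fold change was -0.86 ± 0.11 (SE; adjusted p = 3.32e-06) in Plin2+/+ and -0.66 ± 0.11 (adjusted p = 0.000109) in Plin2-null livers. Hamp2 and Trf were the only members whose fasted libraries all lay below the fed ones in Plin2+/+ livers, 2 of 10 where 15.6% of all genes did so, and none lay wholly above (6.72% of all genes). In Plin2-null livers these and Slc40a1 lay wholly below, 3 of 10 against 18.7% of all genes, and none above (3.8%).

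Slc40a1 (ferroportin) was called lower on fasting in Plin2+/+ livers. It read 68.3, 61.0, 72.6, 79.98 and 53.6 TPM fed and 55.0, 42.6, 23.8, 45.8 and 41.3 TPM fasted in that genotype. In Plin2-null livers it read 69.6, 66.4, 59.9, 61.5 and 66.2 TPM fed and 48.3, 46.5, 34.4, 40.7 and 48.6 TPM fasted. A single fasted Plin2+/+ library exceeded the lowest fed one, and in Plin2-null livers the groups did not overlap. On the scaled counts the log2 fold change was -0.54 ± 0.15 (SE; adjusted p = 0.00671) in Plin2+/+ and -0.27 ± 0.15 (adjusted p = 0.176) in Plin2-null livers. The Plin2-null value passed the threshold with library size as the only scaling (-0.50, adjusted p = 0.0157) and on TPM values (-0.57 with a pseudocount of 1, adjusted p = 0.0121).

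Ferroportin is also abundant in Kupffer cells, the macrophages of the liver, whose markers moved with it. Of 11 Kupffer cell markers, 8 fell (72.7%) and none rose in fasted Plin2+/+ livers, beside 21.7% and 20.9% of all genes. In Plin2-null livers 5 fell (45.5%) and none rose, beside 18.1% and 18.0%. The summed marker level was 618 to 723 TPM fed and 322 to 462 TPM fasted in Plin2+/+, and 517 to 1303 and 383 to 654 TPM in Plin2-null libraries. None of the 11 was at 0 in any library. Their part in the Slc40a1 result was not tested.

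Tfrc, the receptor through which most cells take up transferrin, varied widely within groups and was not called. It ranged from 6.10 to 23.4 TPM fed and from 5.99 to 13.2 TPM fasted in Plin2+/+ libraries, and from 6.08 to 19.8 and 5.94 to 12.6 TPM in Plin2-null libraries. Its log2 fold change was -0.31 ± 0.33 (SE; interval -1.01 to 0.39) in Plin2+/+ and -0.09 ± 0.33 (-0.79 to 0.61) in Plin2-null livers, so intervals this wide leave sizeable changes undetectable.

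Ftl1, the ferritin light chain, read 2907, 4179, 3487, 3090 and 3974 TPM fed and 2436, 1964, 2754, 3259 and 4640 TPM fasted in Plin2+/+ livers. In Plin2-null livers it read 3693, 4323, 3696, 2645 and 3020 TPM fed and 3515, 3534, 3072, 4826 and 4914 TPM fasted. Fed and fasted ranges overlapped in both genotypes. The log2 fold change was -0.10 ± 0.17 (SE; adjusted p = 0.69) in Plin2+/+ and 0.47 ± 0.17 (adjusted p = 0.0383) in Plin2-null livers. The Plin2-null call held in 12 of 21 settings, and was lost with library size alone (0.26, adjusted p = 0.303), on TPM values (0.19, adjusted p = 0.476), without a filter on low counts (0.44, adjusted p = 0.0584) and without any 1 of fasted replicates 3, 4 and 5 or fed replicates 4 and 5 (up to 0.107).

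Fth1, the ferritin heavy chain with the iron-oxidising activity, was the steadiest of the 10 in fed Plin2+/+ livers, with an SD of 6.10% of its mean. In fed Plin2-null livers its SD was 15.0% of the mean, and Trf had the smallest of the 10 (5.47%). Fth1 ranged from 261 to 304 TPM fed and 251 to 315 TPM fasted in Plin2+/+, and from 226 to 326 and 222 to 333 TPM in Plin2-null libraries. The log2 fold changes of 0.23 ± 0.13 (SE; adjusted p = 0.185) and 0.21 ± 0.13 (adjusted p = 0.242) were not called. Ferritin has processed copies in the genome that could take some of its reads. The most abundant, Ftl1-ps1, held at most 328 counts a library beside 45702 to 122376 for Ftl1, and Fth-ps2 at most 8. Since the treatment of reads that match both a copy and its parent is not known, these counts do not bound the reads lost.

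**Figure D3:**
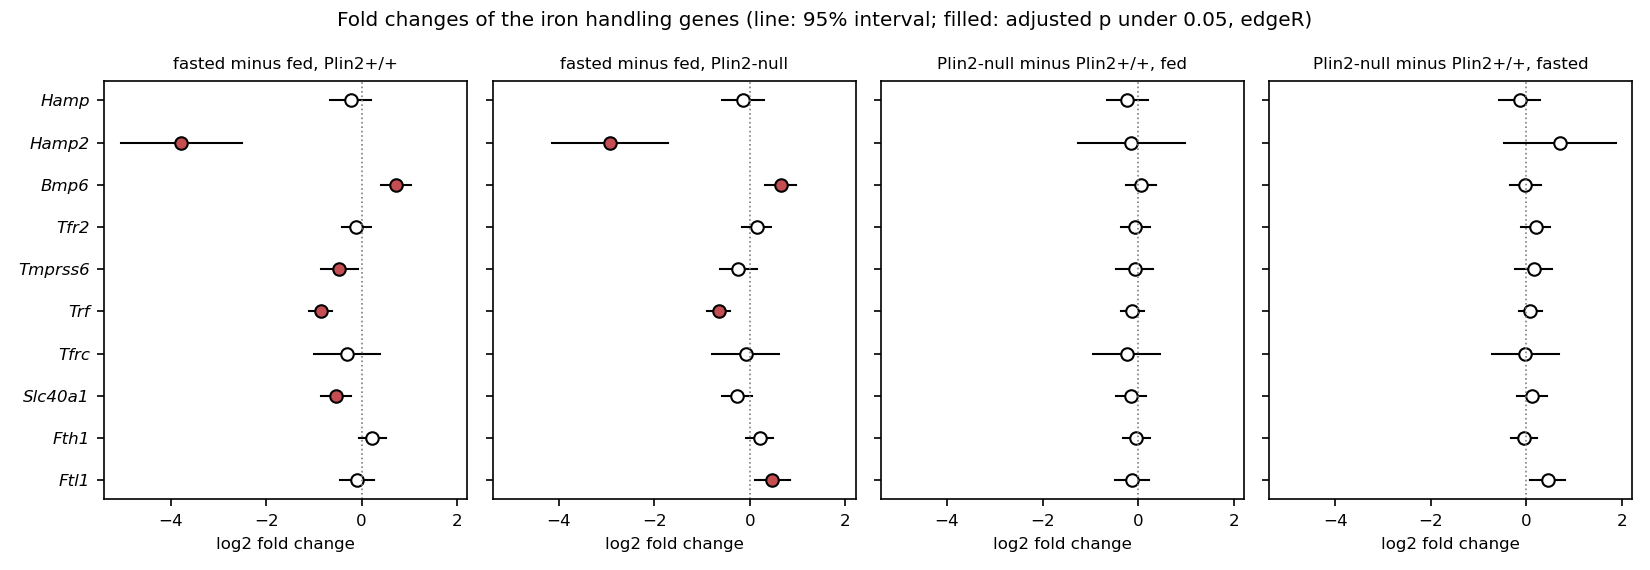
Log2 fold change of each iron handling gene (points) with its 95% interval (lines) in 4 comparisons; filled points passed an adjusted p of 0.05 by edgeR. The 2 fasting panels hold 5 and 4 filled points, and the 2 genotype panels hold none.

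The comparison of Plin2-null with Plin2+/+ livers asked whether loss of PLIN2 alters the iron genes in either feeding state. In fed mice none of the 10 was called by edgeR, where 0.0184% of all genes were (3 of 16312), and none had an unadjusted p under 0.05. DESeq2 and limma voom also called 0. The log2 differences lay between -0.24 (Tfrc) and 0.06 (Bmp6). That of Trf had an interval of -0.36 to 0.11 and that of Hamp -0.66 to 0.21, while the interval of Hamp2 ran from -1.27 to 0.97.

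In fasted mice, again 0 of 10 were called, where 3.24% of all genes were (528 of 16312). One member, Ftl1, had an unadjusted p under 0.05 (0.0185), with a log2 difference of 0.44 ± 0.17 (SE; edgeR adjusted p = 0.13) between Plin2-null and Plin2+/+. Its ranges, 3072 to 4914 TPM in Plin2-null and 1964 to 4640 TPM in Plin2+/+ fasted libraries, overlapped. Without Plin2+/+ fasted replicate 5, the highest of its group, Ftl1 was called (0.59, adjusted p = 0.0343). DESeq2 and limma voom called 0 of the 10. Hamp differed by -0.14 ± 0.21 (interval -0.58 to 0.29) and Hamp2 by 0.70 ± 0.55 (-0.47 to 1.87).

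The interaction, the fasting response in Plin2-null minus that in Plin2+/+ livers, was tested to ask whether the genotypes respond differently. It called 0 of the 10, and 0.0% of all genes, by edgeR. Of the 10, Ftl1 had an unadjusted p under 0.05 (0.57 ± 0.25 SE; adjusted p = 0.324), and over all genes 2250 had. DESeq2 and limma voom called 0 of the 10, and 63 and 2 of all genes. The calls of Tmprss6 and Slc40a1 in Plin2+/+ livers alone, and of Ftl1 in Plin2-null livers alone, are therefore not shown to differ between genotypes: the interaction was 0.23 ± 0.26 for Tmprss6 and 0.27 ± 0.22 for Slc40a1 (adjusted p = 0.707 and 0.56). For Hamp2 it was 0.84 ± 0.77 (adjusted p = 0.622).

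The wider iron pathway was read from 74 further genes, listed by role, of which 71 were tested; Erfe, Ftmt and Il6 had too few counts. On fasting, 19 rose (26.8%) and 12 fell (16.9%) in Plin2+/+ livers, beside the 20.9% and 21.7% of all genes, and 22 rose (31.0%) and 9 fell (12.7%) in Plin2-null livers, beside 18.0% and 18.1%. The median log2 fold changes were 0.10 and 0.12. These calls moved with the scaling. Of the 31 called in Plin2-null livers, 22 stayed called with library size alone and 17 on log2(TPM + 1). Those fits called 29 and 28 genes, among them Hpx, Slc46a1 and Steap3, which the reported fit did not call there. In Plin2+/+ livers 26 and 23 of the 31 stayed called. The split by direction is thus relative to the bulk of genes, as above.

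Of 11 other genes of BMP ligands and the hepcidin-sensing complex, 4 rose (36.4%) and 1 fell (9.09%) in Plin2+/+ livers, beside 20.9% and 21.7% of all genes. In Plin2-null livers 3 rose (27.3%) and 1 fell (9.09%), beside 18.0% and 18.1%. Bmp2, the other endothelial ligand, read 7.18, 8.53, 8.47, 7.87 and 8.80 TPM fed and 15.1, 12.0, 11.0, 9.19 and 12.8 TPM fasted in Plin2+/+ livers, with no overlap. Its log2 fold change was 0.70 ± 0.12 (SE; adjusted p = 7.32e-05) there and 0.47 ± 0.12 (adjusted p = 0.00377) in Plin2-null livers. Furin, a protease that processes prohormones including hepcidin, rose by 0.50 ± 0.20 and 0.80 ± 0.20. The BMP type I receptor Acvr1 fell by 0.52 ± 0.11 in Plin2+/+ and by 0.72 ± 0.11 in Plin2-null livers. The receptor Bmpr1a (0.53 ± 0.11) and the hepatokine Fgl1, which binds BMP6 (0.56 ± 0.17), were called in Plin2+/+ livers, and the stress cytokine Gdf15 (1.62 ± 0.46) in Plin2-null livers.

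Among 9 SMAD and BMP target genes, 2 rose (22.2%) and none fell in Plin2+/+ livers, beside 20.9% and 21.7% of all genes. In Plin2-null livers 3 rose (33.3%) and 1 fell (11.1%), beside 18.0% and 18.1%. Smad4, the shared SMAD partner, rose by 0.45 ± 0.09 (SE) and 0.23 ± 0.09, and Atoh8, a BMP target that acts on the Hamp promoter, by 0.55 ± 0.20 and 0.68 ± 0.20. Id1, a standard BMP target, measured 3.30 ± 1.99 TPM fed and 5.10 ± 1.07 TPM fasted in Plin2+/+ livers (SD, n = 5; 0.77 ± 0.35 SE, adjusted p = 0.0854). In Plin2-null livers it rose from 3.53 ± 1.03 to 9.42 ± 3.94 TPM (1.74 ± 0.35 SE, adjusted p = 0.000587). The interaction for Id1 was 0.98 ± 0.49 (adjusted p = 0.379), so the genotypes are not shown to differ. Smad5 fell by 0.35 ± 0.10 in Plin2-null livers. Smad7 and Id3, also BMP targets, were not called in either genotype, with changes for Id3 of -1.04 ± 0.44 (adjusted p = 0.0641) in Plin2+/+ and -0.29 ± 0.43 (adjusted p = 0.626) in Plin2-null livers. Those of Smad7 were -0.16 ± 0.24 and 0.30 ± 0.24.

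Of 7 tested genes of inflammatory and fasting inputs to hepcidin, 3 rose in Plin2+/+ (42.9%) and 2 in Plin2-null livers (28.6%), and none fell. Over all genes, 20.9% rose and 21.7% fell in Plin2+/+, and 18.0% and 18.1% in Plin2-null livers. Ppargc1a, a coactivator of the fasting programme, rose by 2.58 ± 0.40 (SE) and 1.19 ± 0.38. Creb3l3, a liver transcription factor that can act on the Hamp promoter, rose by 0.807 ± 0.181 and 1.195 ± 0.182. The interleukin 6 receptor Il6ra was called in Plin2+/+ livers (1.01 ± 0.24). Neither Stat3 nor its target Socs3 was called in either genotype.

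Uptake genes moved in both directions. Of 14 besides Trf and Tfrc, 3 rose (21.4%) and 6 fell (42.9%) in Plin2+/+ livers, beside 20.9% and 21.7% of all genes. In Plin2-null livers 3 rose and 3 fell (21.4% each), beside 18.0% and 18.1%. Steap4, a metalloreductase, measured 80.64 ± 8.67 TPM fed and 34.5 ± 7.24 TPM fasted in Plin2+/+ livers (SD, n = 5), with log2 fold changes of -1.09 ± 0.11 (SE; adjusted p = 9.59e-08) and, in Plin2-null livers, -0.99 ± 0.11 (adjusted p = 4.68e-07). The iron importer Slc11a2 fell by 0.70 ± 0.13 and 0.61 ± 0.13, and Lrp1, which takes up the haem carrier haemopexin, by 1.00 ± 0.22 and 0.68 ± 0.22. Steap3 (-1.23 ± 0.21), the haem transporter Slc46a1 (-0.67 ± 0.15) and haemopexin itself, Hpx (-0.34 ± 0.12), were called in Plin2+/+ livers. Mean TPM also fell in Plin2-null livers, from 7.26 to 4.37 for Steap3, 21.9 to 13.8 for Slc46a1 and 4822 to 3635 for Hpx. There all 3 were called with library size alone and on log2(TPM + 1), and Slc46a1 also by DESeq2.

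The 3 uptake genes that rose were Hp, Cd163 and Lcn2 in both genotypes. Hp, the plasma haemoglobin carrier haptoglobin, rose by 0.87 ± 0.15 (SE) and 1.15 ± 0.15. Cd163, the macrophage receptor for that complex, rose by 1.07 ± 0.14 and 0.50 ± 0.14, in libraries where 8 and 5 of the 11 Kupffer cell markers fell. Lcn2, which binds bacterial siderophores, rose by 1.21 ± 0.46 and 1.87 ± 0.46.

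In iron storage and release, all 3 tested genes besides the ferritins rose in Plin2-null livers, beside 18.0% of all genes. In Plin2+/+ livers 2 of 3 rose (66.7%), beside 20.9% of all genes. Ncoa4, the receptor that carries ferritin to autophagy, read 35.3, 29.6, 25.3, 33.1 and 26.6 TPM fed and 59.0, 65.7, 77.0, 40.0 and 52.2 TPM fasted in Plin2+/+ livers. In Plin2-null livers it read 28.9, 30.5, 27.4, 34.2 and 28.01 TPM fed and 38.2, 30.7, 29.2, 37.5 and 35.7 TPM fasted. The Plin2+/+ groups did not overlap, and the Plin2-null groups did. The log2 fold changes were 1.16 ± 0.15 (SE; adjusted p = 3.25e-06) and 0.50 ± 0.15 (adjusted p = 0.0131). The iron chaperone Pcbp2, which delivers iron to ferritin, rose by 0.65 ± 0.10 and 0.57 ± 0.10, and Pcbp1 was called in Plin2-null livers (0.64 ± 0.13). The Plin2-null call of Pcbp2 was lost by limma on log2(TPM + 1) (0.26, adjusted p = 0.0776) and log2(TPM + 0.1) (0.27, adjusted p = 0.08).

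Of the 3 genes of iron regulatory proteins and their control, Aco1, which encodes IRP1, fell by 0.69 ± 0.10 (SE) in Plin2+/+ and by 0.35 ± 0.10 in Plin2-null livers. Ireb2, which encodes IRP2, was called higher in Plin2+/+ livers (0.57 ± 0.12, adjusted p = 0.000474) and was at -0.03 ± 0.12 in Plin2-null livers (adjusted p = 0.841). Fbxl5, the ubiquitin ligase subunit that removes IRP2, was not called. Of 4 genes listed under iron export besides Slc40a1, 1 rose (25.0%) and none fell in each genotype. Over all genes, 20.9% rose and 21.7% fell in Plin2+/+, and 18.0% and 18.1% in Plin2-null livers. The genes called were the haem exporter Flvcr1 in Plin2+/+ (0.36 ± 0.13) and Abcg2 in Plin2-null livers (0.76 ± 0.17).

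Haem genes moved in both directions: 2 of 12 rose (16.7%) and 3 fell (25.0%) in Plin2+/+ livers, beside 20.9% and 21.7% of all genes. In Plin2-null livers 4 rose (33.3%) and 2 fell (16.7%), beside 18.0% and 18.1%. The synthesis enzyme Ppox fell by 1.00 ± 0.12 (SE) and 0.81 ± 0.12, and the biliverdin reductase Blvra by 0.34 ± 0.12 and 0.46 ± 0.12. Cpox, which acts just before Ppox, rose by 0.56 ± 0.14 and 0.74 ± 0.14, and the constitutive haem oxygenase Hmox2 by 0.69 ± 0.09 and 0.61 ± 0.09. Alad was called lower in Plin2+/+ livers (-1.43 ± 0.24). In Plin2-null livers it was called by DESeq2 and limma voom but not in the reported fit. It read 55.7 to 107 TPM fed and 38.8 to 53.6 TPM fasted there. The inducible haem oxygenase Hmox1 (0.53 ± 0.16) and Blvrb (0.83 ± 0.25) were called higher in Plin2-null livers. Of 8 genes of mitochondrial iron and iron-sulphur clusters, 1 rose and 1 fell in Plin2+/+ livers (12.5% each), beside 20.9% and 21.7% of all genes. In Plin2-null livers 3 rose (37.5%) and 1 fell (12.5%), beside 18.0% and 18.1%. The mitochondrial importer Slc25a37 fell by 0.69 ± 0.11 and 0.32 ± 0.11, the cluster assembly gene Isca1 rose by 0.52 ± 0.09 and 0.48 ± 0.09, and Glrx5 (1.09 ± 0.16) and Slc25a28 (0.52 ± 0.16) were called in Plin2-null livers.

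Red cell precursors also express haem and uptake genes. Of 6 tested erythroid markers, 2 fell (Alas2 and Epor) in Plin2+/+ livers (33.3%, against 21.7% of all genes). In Plin2-null livers 1 fell (Alas2), 16.7% against 18.1%. The summed level of the 7 markers listed was 102 to 145 TPM fed and 59.1 to 142 TPM fasted in Plin2+/+, and 108 to 214 and 69.1 to 183 TPM in Plin2-null libraries. The membrane marker Slc4a1 was at 0 in 7 of the 20 libraries and reached at most 0.103 TPM. The part of such cells in the haem gene results was not tested.

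**Figure D4:**
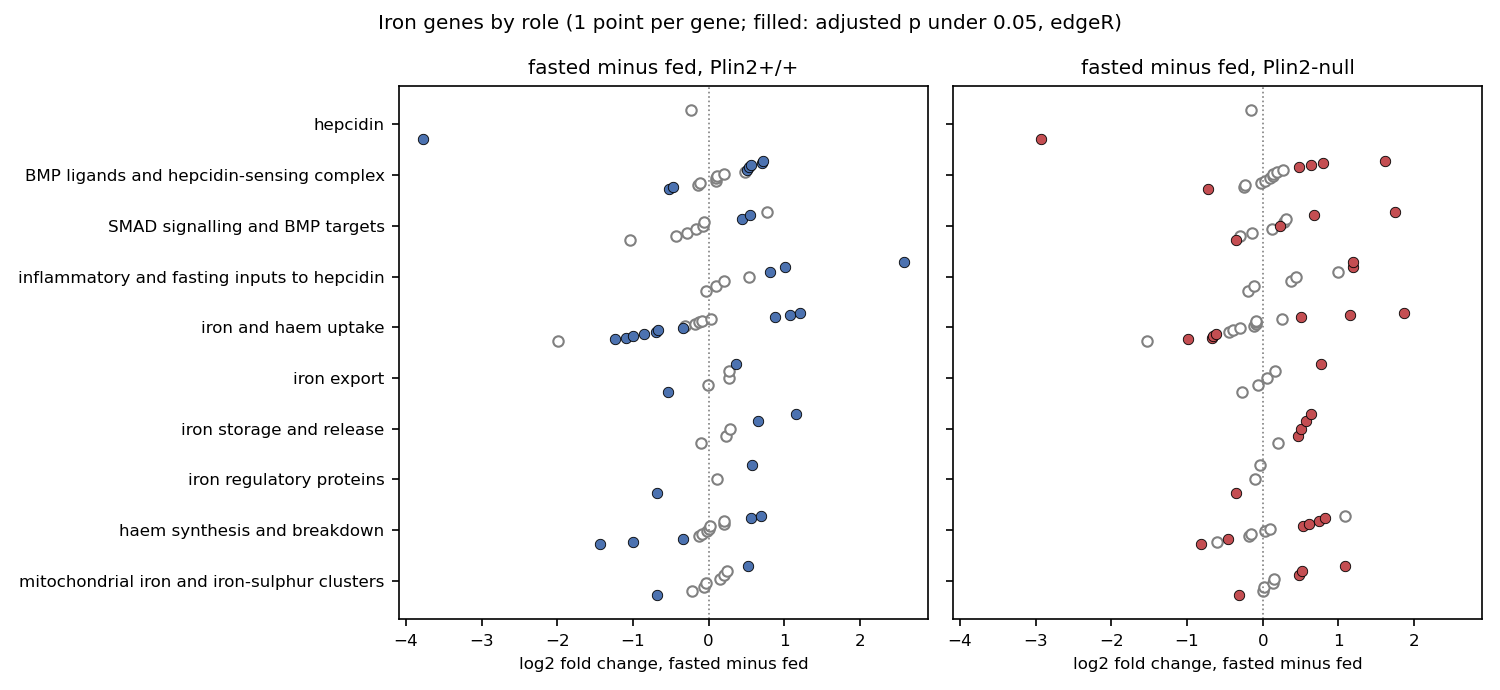
Log2 fold change on fasting of every tested iron gene (1 point each, the 10 members included), sorted by role, in Plin2+/+ (left) and Plin2-null livers (right); filled points passed an adjusted p of 0.05 by edgeR. Most filled points of the uptake group lie left of 0, and those of the storage and release group lie right of 0.

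Between the genotypes, 0 of the 71 other iron genes were called in fed livers by edgeR, with 1 at an unadjusted p under 0.05, and DESeq2 and limma voom called 0. In fasted livers 5 were called, 2 higher (2.82%) and 3 lower (4.23%) in Plin2-null mice, beside 1.51% and 1.73% of all genes. Ncoa4 was lower in Plin2-null fasted livers by 0.76 ± 0.15 on the log2 scale (SE, edgeR adjusted p = 0.0153). Its ranges of 29.2 to 38.2 TPM in Plin2-null and 40.0 to 77.0 TPM in Plin2+/+ libraries did not overlap. How many of all genes lie apart in this way between the fasted genotypes was not counted. Ireb2 differed by -0.52 ± 0.12 (adjusted p = 0.0258), at 14.0 to 28.05 TPM against 23.1 to 44.4 TPM. Ppargc1a differed by -1.52 ± 0.38 (adjusted p = 0.0415), at 4.70 to 10.3 TPM against 9.07 to 32.2 TPM. Glrx5, a mitochondrial glutaredoxin of cluster assembly, was higher by 0.66 ± 0.16 (adjusted p = 0.0339), at 5.79 to 10.4 TPM against 4.38 to 6.68 TPM. Alad, an early enzyme of haem synthesis, was higher by 0.90 ± 0.24 (adjusted p = 0.0462), at 38.8 to 53.6 TPM against 15.3 to 40.3 TPM.

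These 5 calls rested on few animals. The number called was 0 without Plin2+/+ fasted replicate 2 or 3 or Plin2-null fasted replicate 5. It was 1 without Plin2+/+ fasted replicate 1 or Plin2-null fasted replicate 3, and 3 without Plin2-null fasted replicate 1 or 4. It was 4 without Plin2-null fasted replicate 2, 8 without Plin2+/+ fasted replicate 4, and 13 without Plin2+/+ fasted replicate 5. Of 21 settings, Ncoa4 was called in 17, Glrx5 in 12, Ireb2 in 11, Ppargc1a in 9 and Alad in 8. The interaction called none of the 71 by edgeR, DESeq2 or limma voom, with 12 at an unadjusted p under 0.05 by edgeR. It was -0.66 ± 0.21 (SE; adjusted p = 0.25) for Ncoa4, -0.61 ± 0.17 (adjusted p = 0.225) for Ireb2 and 0.85 ± 0.23 (adjusted p = 0.225) for Glrx5.

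**Figure D5:**
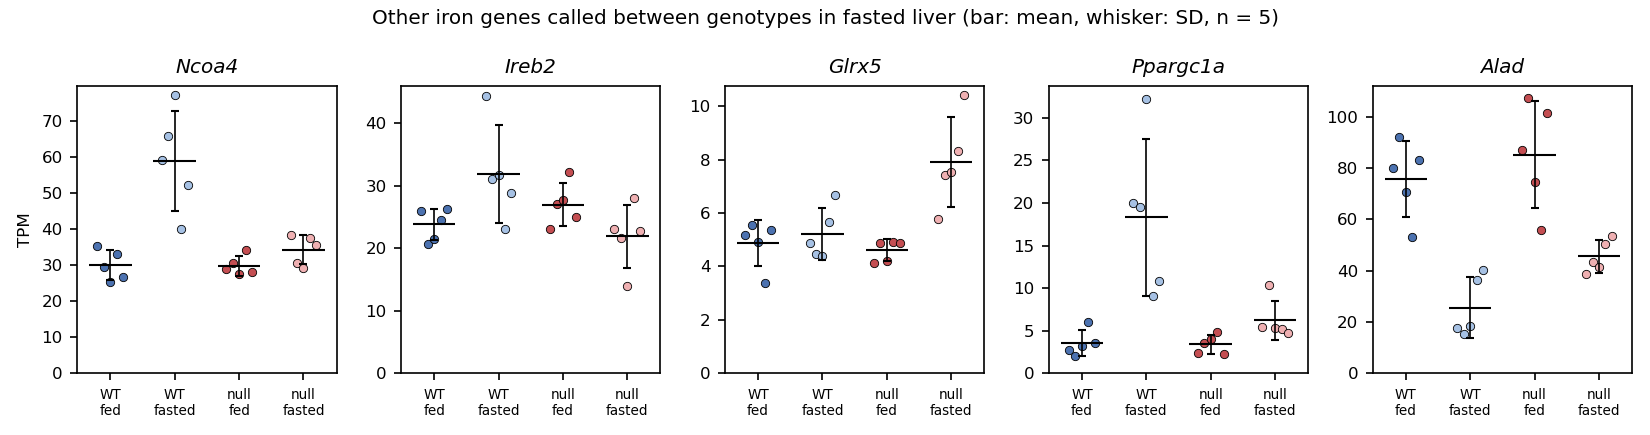
TPM by library (points) with the mean (bar) and SD (whisker) of 5 libraries a group, for the 5 further iron genes called between genotypes in fasted livers. For Ncoa4 every Plin2-null fasted library (at most 38.2 TPM) is below every Plin2+/+ fasted library (at least 40.0 TPM), and the other 4 genes overlap. The share of all genes that lie apart in this way was not counted.

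Hamp was set against the inputs Bmp6 and Creb3l3, the BMP or STAT3 targets Id1, Smad7 and Socs3, and Hamp2 from mouse to mouse. The 20 libraries were used, as deviations of log2 CPM from each group's mean. Of 6 relations none passed. Hamp against Hamp2 gave Pearson r = 0.30 (permutation p = 0.294, adjusted p = 0.717) and Spearman rho = 0.15 (permutation p = 0.555, adjusted p = 0.796). For each gene, r was also taken without the 2 libraries farthest from the median of that gene's deviations, which gave 0.22 for Hamp2. For Bmp6 r was -0.10 (permutation p = 0.717, adjusted p = 0.717) and rho -0.17 (permutation p = 0.499, adjusted p = 0.796), and r = -0.04 without its own 2. For Creb3l3 r was -0.28 (permutation p = 0.326, adjusted p = 0.717) and rho -0.37 (permutation p = 0.144, adjusted p = 0.796), and r = -0.15 without its own 2. Id1, Smad7 and Socs3 gave r between -0.09 and 0.09, all with an adjusted permutation p of 0.717. Without the 2 libraries farthest for each gene, r was 0.0087 for Id1, -0.10 for Smad7 and -0.16 for Socs3. With all 20 libraries on log2 TPM, r was -0.23, -0.25 and 0.19.

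The genes outside the iron lists whose log2 CPM followed Hamp most closely, by the mean Pearson r over the 10 fed and the 10 fasted libraries among 8744 genes, were Grb10 (0.79), Tmx4 (0.79), Igfbp3 (0.78), Ankrd49 (0.77) and Taf5l (0.77). For Tfrc they were Slc4a7 (0.85), Slc30a1 (0.83), D16Ertd472e (0.83), Uhrf1bp1l (0.82) and Picalm (0.81). These values are the extremes of many candidates over few libraries, and the points share each library's depth and base composition, so they are given as a description.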

How the data were processed

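Per the labels' protocols, liver RNA was column-purified and used for strand-specific mRNA sequencing. Raw counts by mouse Ensembl identifier and, separately, TPM values were deposited by the authors. Per the submitters' processing notes, HISAT2 1.2.1 and featureCounts 1.4.6-p1 were used; these notes name a human build although the gene identifiers are mouse, and no annotation version, strand setting or treatment of multi-mapping reads is given in the sources used here. Thus overlapping genes and near-identical copies remain uncertain. In the deposited TPM table the header is shifted left by 1 cell; all 20 columns matched the counts of their own library. The 10 genes, the lists of other iron genes and the markers (hepatocyte, Kupffer cell, sinusoidal endothelial, erythroid, stellate, lymphocyte, neutrophil and monocyte) were chosen with earlier results of these data known; 1 marker is not reported here.

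Counts were fitted with edgeR 4.0.16 in R 4.3.3 (filterByExpr, TMM, robust quasi-likelihood, 1 coefficient per group over all 20 libraries). Genes were called at a Benjamini-Hochberg adjusted p under 0.05 over 16312 genes. SE was computed as the absolute fold change (log2) divided by the root of the F statistic. Levels are the deposited TPM values. Alternatives were DESeq2 1.42.0, limma 3.58.1 (voom, or log2(TPM + 1) and log2(TPM + 0.1)), other scalings and filters, a correction for the GC trend per library, a fit of the compared groups only, and fits without each single library; a setting means the reported fit or 1 of these. Of 40 pairs of libraries within groups, the least different gave a chi-square of 45.3 for each degree of freedom, so each counted as 1 replicate. Genes named are all members, called genes of each list described, up to 10 others per comparison by adjusted p, and the 5 most like Hamp or Tfrc among genes with at least 5 CPM; other genes not called were named after their values were seen. Correlations used log2 CPM (prior count 2) and 100000 permutations within groups (scipy 1.17.1). Promoters are from RefSeq; hairpins were read from GENCODE M21 transcripts. Figures were drawn with matplotlib 3.10.9.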

Additional observations from a re-analysis of the deposited data

Results flagged for a closer look

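One value stood far from its group. In fed Plin2+/+ livers the highest Bmp6 library read 3.84 TPM, and the nearest of the other 4 read 2.95 TPM. The gap took up 0.735 of the group's range, above Dixon's critical value of 0.71 for 5 libraries. With 40 such groups of 5 examined, chance alone flags about 1 in 20.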

How the results depend on the processing

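Between genotypes in fasted livers, the 528 genes and 5 other iron genes called became 1433 and 10 with DESeq2, 108 and 2 with library size alone, 27 and 1 on log2(TPM + 1), 39 and 1 on log2(TPM + 0.1), 319 and 3 without a filter, and 104 and 1 with only the compared groups in the fit. The last called none of the 5 and Alas1 instead, DESeq2 called all 5, and the others here called no iron gene outside them. Leaving out 1 library gave 13 to 1794 genes, 0 to 13 other iron genes and 0 to 1 members. In fed livers DESeq2 called 7 genes rather than 3. The interaction called 63 genes with DESeq2, 2 with limma voom, 1 without a filter and 0 to 1 without 1 library, rather than 0. The cause was not tested, and a fit on only the groups compared does not exist for the interaction, which uses all of them. On log2(TPM + 1), 1567 genes rose and 3623 fell on fasting in Plin2+/+ livers and 1014 rose and 4568 fell in Plin2-null livers. Fasting calls of Hamp2 and Trf held in all 21 settings in both genotypes, and those of Bmp6 and Slc40a1 in all 21 in Plin2+/+ livers. Among the 10 members, Plin2 and up to 10 other called iron genes per comparison, no called result changed sign. Other genes were not checked for this. No paired analysis was possible because each title carries its own number and replicate numbers only follow accession order. Total counts of at least 25506471 a library leave Bmp6 with 147 to 350 counts, the lowest of the members apart from Hamp2 in fasted libraries.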

Other observations

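Other cell type markers, which belong to no comparison above, also moved. Of 6 lymphocyte markers, 3 fell on fasting in Plin2+/+ livers and none was called in Plin2-null livers, where 0 had an unadjusted p under 0.05, with summed levels of 4.95 to 7.28 TPM fed and 1.98 to 4.24 TPM fasted in Plin2+/+ libraries. Of 6 stellate cell markers, 3 fell in Plin2+/+ and 2 in Plin2-null livers. Of 6 neutrophil and monocyte markers, 2 rose and 2 fell in Plin2+/+, and 3 rose and 1 fell in Plin2-null livers. Beside these counts, 20.9% of all genes rose and 21.7% fell on fasting in Plin2+/+ livers, and 18.0% and 18.1% in Plin2-null livers. Whether these short lists differ from all genes was not tested. Between genotypes in fasted livers, 2 neutrophil and monocyte, 2 stellate cell and 1 lymphocyte marker were higher in Plin2-null mice. These were 33.3%, 33.3% and 16.7% of their lists, against 1.51% of all genes. In the same comparison 1 hepatocyte marker was lower (16.7%, against 1.73%).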
